A study of Mus musculus with 12 samples.

Results

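The genes described here encode the phagocyte NADPH oxidase and the channel that serves it, and they were followed in RNA from whole bone marrow (BM) cells of mice. The members were the genes of the deposited count table whose symbol is Cybb, Cyba, Ncf1, Ncf4, Rac2 or Hvcn1. All 6 were present among the 12199 genes of the table, and all 6 passed the filter on low values that left 12175 genes for testing. The study asked how heterozygous loss of Tet2 and of Dnmt3a act beside an internal tandem duplication in Flt3 (Flt3ITD) in myeloid leukemia.

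The 4 groups on a C57BL/6 background were WT mice, DF mice (Dnmt3aFlox/+:MxCre with Flt3 ITD/+), TF mice (Tet2+/- with Flt3ITD/+) and TFD mice, which carry all 3 alleles. The product of Dnmt3a adds methyl groups to DNA and that of Tet2 oxidizes them, and Flt3 encodes a receptor tyrosine kinase of early hematopoietic cells. Mice of every group, WT among them, were given poly(I:C), an inducer of interferon. In DF and TFD mice it turns on MxCre, a recombinase under an interferon-responsive promoter that is not limited to blood cells. The Tet2 allele was inherited through the germline. The age at sampling is not in the labels. There were 3 libraries each of WT, DF and TF and 2 of TFD. A further TFD replicate, number 3, was not analysed here. Nothing in the labels says more of the replicates than their numbers, so p values measure the spread between these samples.

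The oxidase makes superoxide from oxygen with electrons of NADPH, and it is best known in neutrophils and macrophages, where it serves the killing of microbes. Its membrane core is a heterodimer of gp91phox, the catalytic chain encoded by Cybb, and p22phox, its stabilizing partner encoded by Cyba. In resting cells the organizer p47phox (Ncf1) and the regulator p40phox (Ncf4) lie in the cytosol and move to the membrane when the cell is stimulated. The GTPase Rac2, the main Rac of hematopoietic cells, is needed for the switch to the active state. Hvcn1 encodes the voltage-gated proton channel that balances the charge carried by the electrons, and it is also expressed in B cells. Loss of function in Cybb, Cyba or Ncf1 causes chronic granulomatous disease in humans.

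The promoter sequences of 3 of the 6 members are held in the RefSeq table on build GRCm38.p6, which is the assembly of mm10: those of Cybb, Cyba and Ncf1. They are shown because these genes encode both chains of the membrane core and its organizer, and because Cybb and Ncf1 had the most similar pattern over the libraries of any pair of members. Each is written from 250 bases before the transcription start to 30 bases from the start onward, 5′ to 3′ on the strand of the gene. Capitals mark bases in a match to one of 4 motifs searched on both strands.
Cybb: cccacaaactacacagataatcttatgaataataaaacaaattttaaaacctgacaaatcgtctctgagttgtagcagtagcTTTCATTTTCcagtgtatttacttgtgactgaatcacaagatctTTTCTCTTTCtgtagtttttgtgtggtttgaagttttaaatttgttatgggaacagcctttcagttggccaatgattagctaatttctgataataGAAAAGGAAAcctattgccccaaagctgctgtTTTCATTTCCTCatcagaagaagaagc
Cyba: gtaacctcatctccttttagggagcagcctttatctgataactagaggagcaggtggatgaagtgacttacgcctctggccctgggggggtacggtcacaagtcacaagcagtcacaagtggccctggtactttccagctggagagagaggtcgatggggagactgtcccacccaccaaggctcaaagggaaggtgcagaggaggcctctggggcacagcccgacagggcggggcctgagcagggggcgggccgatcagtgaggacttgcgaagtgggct
Ncf1: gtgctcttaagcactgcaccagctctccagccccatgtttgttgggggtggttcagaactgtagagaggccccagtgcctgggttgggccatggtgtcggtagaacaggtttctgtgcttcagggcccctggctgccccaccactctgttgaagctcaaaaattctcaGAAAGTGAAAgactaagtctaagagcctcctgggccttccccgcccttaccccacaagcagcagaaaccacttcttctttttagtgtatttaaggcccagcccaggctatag

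The Cybb window lies at chrX:9469295-9469574 on the minus strand, that of Cyba at chr8:122432911-122433190 on the minus strand and that of Ncf1 at chr5:134229596-134229875 on the minus strand. The motifs were GAGGAA, a core bound by PU.1, GGAANNGAAA, the composite of an ETS and an IRF site, GAAANNGAAA, a repeat of the IRF core, and TTNCGNAA, a C/EBP pair. Positions are counted from 0 at the transcription start. In the full window of 300 bases Cybb held 3 matches to the IRF repeat, which begin at -168, -124 and -29. It also held 1 match to the ETS and IRF composite from 3 to 12 and 1 match to GAGGAA from 9 to 14, and these last matches overlap each other. Ncf1 held 1 match, to the IRF repeat, from -82 to -73. Cyba held 0 matches to any of the 4 motifs, and none of the 3 windows held TTNCGNAA. Among all 32851 windows of the table, 28.3% held GAGGAA, 2.72% the ETS and IRF composite, 3.44% the IRF repeat and 2.47% the C/EBP pair. The windows also differed in base composition. GC content was 35.3% in Cybb, 54.0% in Ncf1 and 60.7% in Cyba, against a median of 52.7% over all windows, and 3.99% of windows had a lower GC content than that of Cybb. These matches are descriptions of letters and were not tested as sites.

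In the annotation of the deposited table (mm10), Cybb lies at chrX:9435254-9469324, Cyba at chr8:122424771-122432940, Ncf1 at chr5:134220053-134229625 and Rac2 at chr15:78559169-78572783, all on the minus strand. Ncf4 lies at chr15:78244811-78262580 and Hvcn1 at chr5:122209729-122242297, both on the plus strand. Ncf4 and Rac2 are thus neighbours on chromosome 15, with 296588 bases and 7 other genes of the table between them. Counts were summed over the exons of each gene, whose length ran from 759 bases in Cyba to 4750 in Cybb. Of the 2845 exon bases of Hvcn1, 1342 are also exon bases of Tctn1, a gene on the opposite strand that is needed for cilia, so reads of this pair cannot be told apart unless the counting used strand, which the sources used here do not give. Levels are given as CPM, the reads of a gene relative to the library total after edgeR's TMM scaling, and a gene is said to be called, or to rise or fall, at an adjusted p under 0.05. Tctn1 was read at 9.71 to 13.7 CPM in all libraries, and its log2 fold changes versus WT were 0.13 (SE 0.16) in DF, 0.15 (SE 0.16) in TF and 0.01 (SE 0.18) in TFD (adjusted p in edgeR's quasi-likelihood test 0.544, 0.509 and 0.979). None of the other 5 members shared exon bases with a gene of the table.

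Library totals over the genes of the table ran from 8274153 to 15900904 reads, and the members drew between 1026 reads (Hvcn1 in TFD replicate 2) and 29319 reads (Cybb in DF replicate 2), so counting error was small beside the spread between mice. Reads of the X-inactivation transcript Xist were above 10000 in 1 library each of WT, TF and TFD (replicates 3, 3 and 2) and in 0 of the 3 DF libraries. The same libraries had 3, 12 and 4 reads of the Y-linked gene Ddx3y, and all others had 1040 to 2132. By these reads they came from female mice, and the others, all DF libraries among them, from male mice. Genotype and sex are thus partly entangled, and fits with a term for the Xist-rich libraries or without them were among the alternatives. TFD replicates 1 and 2 were farther from each other than any other pair within a genotype. In the check of the altered genes, the log2 fold change of Tet2 was 0.20 (SE 0.16) in TF and 0.25 (SE 0.17) in TFD, and that of Dnmt3a was -0.15 (SE 0.21) in DF and 0.29 (SE 0.23) in TFD, none of them called. Tet2 was called higher in DF (0.49, edgeR adjusted p = 0.0261) and Dnmt3a in TF (0.58, adjusted p = 0.0444), the genotypes in which the gene is not deleted. Neither heterozygous loss was thus seen as a read count lower than in WT, and whole-gene counts do not read a deletion of single exons. Flt3 was higher by 0.93, 1.38 and 1.94 in DF, TF and TFD (edgeR adjusted p = 0.0185, 0.0023 and 0.000552). The labelled tissue, whole marrow, matched its markers in WT, with granulocyte transcripts the most abundant and B cell and erythroid transcripts present.

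Per kilobase of exon, on the scale that allows levels of genes to be compared, the oxidase genes were among the most abundant transcripts of the marrow. Over the 11 libraries, 98.6% of all genes had a lower mean CPM per kilobase than Cybb, 98.3% a lower one than Cyba, 98% than Ncf1, 96.9% than Rac2, 96.1% than Ncf4 and 91.3% than Hvcn1. In WT marrow the order of the means was Cybb (300 CPM per kilobase ± 40.3, SD, n = 3), Ncf1 (223 ± 20.7), Cyba (204 ± 36.6), Rac2 (158 ± 21.9), Ncf4 (104 ± 12.6) and Hvcn1 (72.7 ± 7.57). The ranges of Ncf1 and Cyba overlapped in WT, from 200 to 238 for Ncf1 and from 177 to 246 for Cyba, and these neighbours in the order did not differ beyond their spread. The ranges of the other neighbours did not overlap. In DF marrow Cyba, at 332 to 408 CPM per kilobase, stood next to Cybb, at 360 to 512, and above Ncf1, at 269 to 343, and each of these neighbours overlapped with the next. In TF and in TFD marrow the order of the means was that of DF.

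Both chains of the membrane core were called higher in DF than in WT marrow, though the call of Cybb held in 11 of 20 alternatives. The log2 fold change was larger for Cyba, the smaller chain, but the changes of these genes were not tested against each other. Cybb was read at 1380, 1634 and 1259 CPM in WT replicates 1 to 3 and at 1708, 1887 and 2431 CPM in the DF replicates. In TF it was read at 1670, 1596 and 1342 CPM and in TFD at 1723 and 1320 CPM. All DF libraries lay above all WT libraries, while the TF and TFD libraries overlapped those of WT. The log2 fold change of Cybb in DF versus WT was 0.50 (SE 0.17, 1.41-fold, adjusted p = 0.0369 in edgeR's quasi-likelihood test over all genes). In TF it was 0.11 (95% interval -0.26 to 0.48) and in TFD 0.10 (-0.32 to 0.51), with adjusted p of 0.647 and 0.754, so changes of these sizes in either direction were not separated from the spread.

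Cyba was read at 186, 135 and 143 CPM in WT, at 298, 252 and 310 CPM in DF, at 235, 253 and 200 CPM in TF and at 263 and 144 CPM in TFD. Every DF and every TF library lay above every WT library. The TFD libraries parted, with replicate 1 at the level of DF and replicate 2 within the range of WT. Cyba rose by 0.89 (SE 0.20, 1.85-fold, edgeR adjusted p = 0.00373) in DF and by 0.57 (SE 0.20, 1.48-fold, edgeR adjusted p = 0.0389) in TF. In TFD the log2 fold change was 0.40 (SE 0.22, edgeR adjusted p = 0.196). It was 0.77 without TFD replicate 2 and -0.10 without TFD replicate 1, so the TFD value rests on which of these libraries is used. Each of these fits has 1 TFD library, which is assumed to vary like the other groups. With the Xist term the value was 0.42 (edgeR adjusted p = 0.0838), and with only the libraries without many Xist reads, which again leaves 1 TFD library, it was 0.71 (adjusted p = 0.0231).

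The cytosolic subunits Ncf1 and Ncf4 rose in DF marrow, and neither was called in TF or TFD. Ncf1 was read at 691, 705 and 592 CPM in WT and at 798, 821 and 1017 CPM in DF. It was read at 612, 657 and 566 CPM in TF and at 725 and 514 CPM in TFD. The DF libraries stood above those of every other genotype. The rise in DF versus WT was 0.41 (SE 0.15, 1.33-fold, edgeR adjusted p = 0.0489), close to the threshold, and the call held in 5 of 20 alternatives. In TF the log2 fold change was -0.12 (95% interval -0.44 to 0.21) and in TFD -0.10 (-0.46 to 0.27), with edgeR adjusted p of 0.577 and 0.714.

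Ncf4 showed the same separation with less spread. It was read at 170, 150 and 134 CPM in WT, at 208, 212 and 239 CPM in DF, at 149, 156 and 170 CPM in TF and at 168 and 138 CPM in TFD. The lowest DF library was above the highest library of the other genotypes, which all lay between 134 and 170 CPM. Ncf4 rose by 0.54 (SE 0.12, 1.45-fold, edgeR adjusted p = 0.00353) in DF versus WT. Its log2 fold change was 0.06 (95% interval -0.19 to 0.32) in TF and 0.02 (-0.27 to 0.30) in TFD, with edgeR adjusted p of 0.70 and 0.938.

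**Figure D1:**
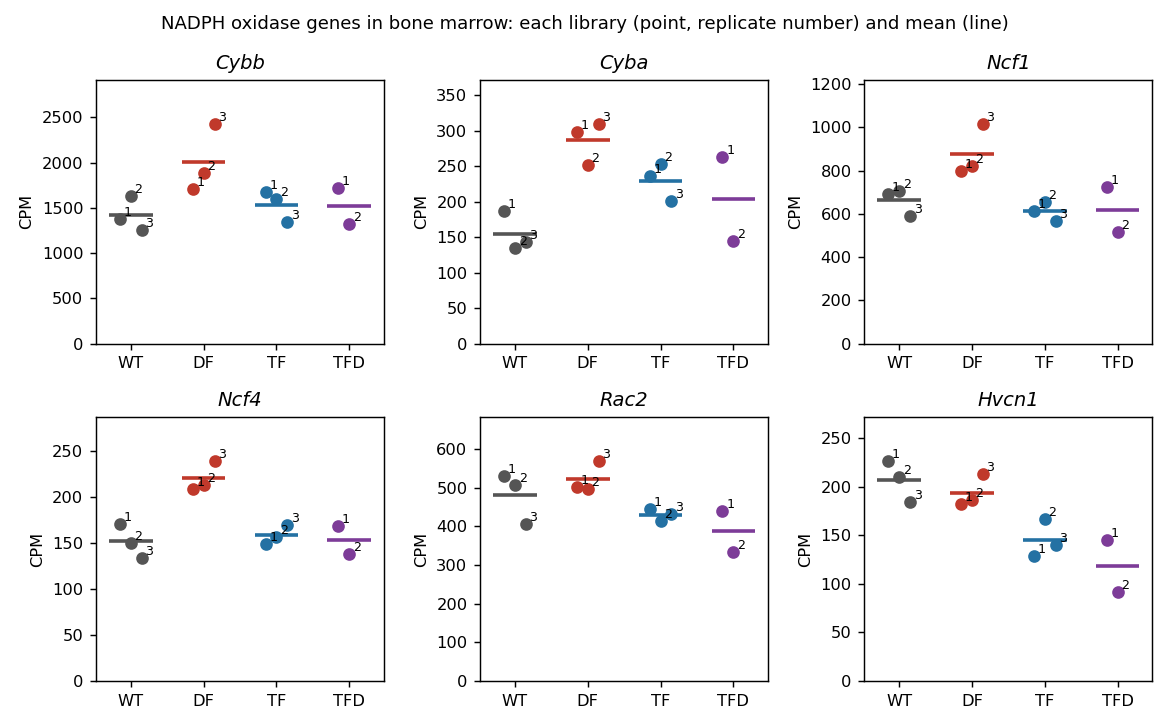
Level of each of the 6 genes in every library, in CPM (vertical axis from 0), by genotype. Each point is a library with its replicate number and each line is the mean of a genotype. The 3 DF libraries of Cybb, Cyba, Ncf1 and Ncf4 lie above the 3 WT libraries, and the TF and TFD libraries of Hvcn1 lie below those of WT.

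Rac2 and Hvcn1, the GTPase and the proton channel, did not rise in any mutant. Rac2 was read at 531, 506 and 406 CPM in WT, at 501, 495 and 569 CPM in DF, at 445, 413 and 431 CPM in TF and at 440 and 334 CPM in TFD. The ranges of the mutants overlapped that of WT in each case. The log2 fold change of Rac2 was 0.12 (SE 0.14, edgeR adjusted p = 0.515) in DF, -0.16 (SE 0.14, adjusted p = 0.376) in TF and -0.31 (SE 0.15, adjusted p = 0.152) in TFD.

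Hvcn1 was read at 227, 210 and 184 CPM in WT, at 182, 186 and 213 CPM in DF, at 129, 167 and 140 CPM in TF and at 145 and 91.4 CPM in TFD. The DF libraries were within or close to the range of WT, and every TF and TFD library was below every WT and DF library. Hvcn1 fell by 0.51 on the log2 scale (SE 0.16, edgeR adjusted p = 0.0261) in TF and by 0.81 (SE 0.18, edgeR adjusted p = 0.00611) in TFD, which puts WT at 1.42 and 1.75 times the level of these mutants. With 1 library left out, the TFD value ran from -1.18 to -0.51. In DF versus WT the log2 fold change of Hvcn1 was -0.09 (SE 0.16, edgeR adjusted p = 0.666). In TF versus WT Hvcn1 was thus called in the opposite direction to Cyba. Tctn1, which shares exon bases with it, was not called in any mutant. In RNA of whole marrow, fewer cells that express a gene and less RNA per cell cannot be told apart, here and in the results on the other members.

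Read against all genes, 4 of the 6 members were called higher in DF versus WT, where 21% of all 12175 genes were called higher, and 0 were called lower, where 16.6% were. In TF versus WT 1 member was called higher and 1 lower, with 19% of all genes called higher and 15.6% lower. In TFD versus WT 0 members were called higher and 1 lower, with 14.7% and 11.6% of all genes. The median log2 fold change of the 6 members was 0.45 in DF, -0.03 in TF and -0.04 in TFD, beside 0.05, 0.02 and 0.01 over all genes tested. These 3 comparisons share the WT libraries, and the counts of members are descriptions. Of the genes called in DF versus WT, 55.9% were higher with TMM factors and 42.3% with library totals in their place, and no scaling moved the median of all genes by over 0.1.

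The calls differed in how firmly they held. Cyba and Ncf4 in DF versus WT were called under all 20 alternatives that were run, with edgeR, DESeq2 or limma adjusted p up to 0.0243 and 0.0272. Hvcn1 in TFD was called in 19 of 20 and was lost only without TFD replicate 2, where its log2 fold change was -0.51 (edgeR adjusted p = 0.0658). Hvcn1 in TF was called in 16 of 20 and Cyba in TF in 14 of 20, with values from -0.62 to -0.43 and from 0.48 to 0.72, and all of these losses came with a single library left out (for Hvcn1, WT replicate 1 or 2 or TF replicate 1 or 3, and for Cyba, WT replicate 2 or 3, DF replicate 1 or 3 or TF replicate 1 or 2). Cybb in DF was called in 11 of 20 and Ncf1 in 5 of 20, with values from 0.30 to 0.60 and from 0.26 to 0.45. Both lost the call with library totals, RLE factors, a replicate block, a term for the libraries rich in Xist reads and without these libraries. Ncf1 also lost it with only the compared groups in the fit. With the Xist term Cybb had 0.40 (edgeR adjusted p = 0.0502) and Ncf1 0.32 (adjusted p = 0.069), and with only the other libraries 0.37 (adjusted p = 0.094) and 0.29 (adjusted p = 0.113). Cybb also lost it without WT replicate 1 or 3 or DF replicate 2 or 3, and Ncf1 without any 1 of the WT, DF or TF libraries. The direction of each of these 7 calls was the same under all 20 alternatives.

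**Figure D2:**
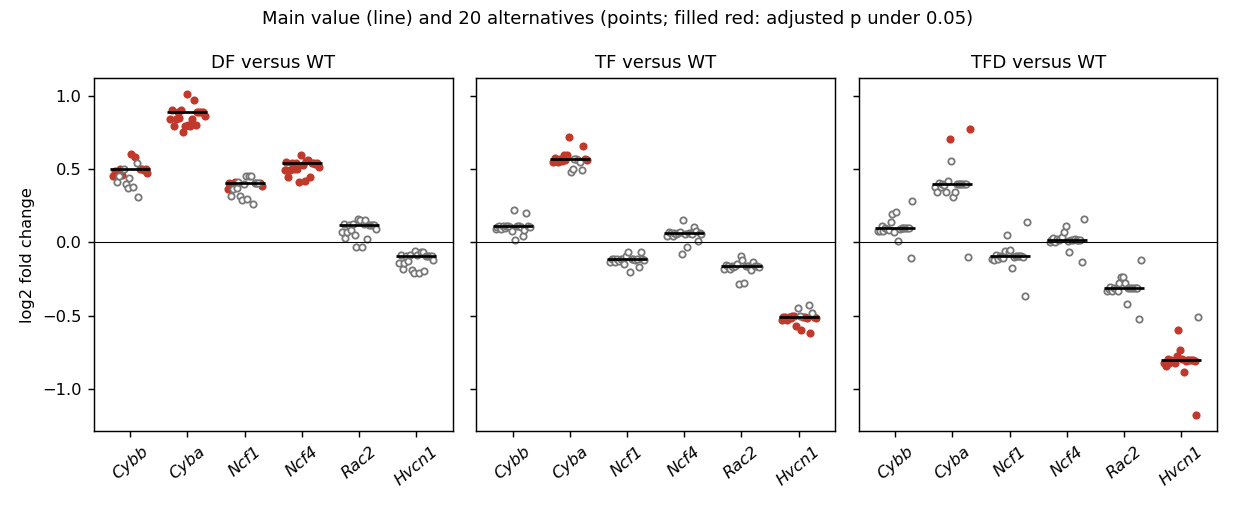
Log2 fold change (vertical axis) of each gene versus WT in the main fit (line) and under 20 alternatives (points, filled red at an adjusted p under 0.05), in 3 panels for DF, TF and TFD. Cyba and Ncf4 in DF are called under all 20 alternatives, Ncf1 in DF under 5, and the points of Cyba in TFD run from -0.10 to 0.77.

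Between the mutant genotypes, which tests the difference itself, DF marrow had the higher level of all 6 members against TF and against TFD, and 1 of these 12 differences was called. In DF versus TF the libraries did not overlap for 5 members, all but Cyba. The share of all genes without such overlap was not counted. Ncf4 was higher by 0.47 (SE 0.12, 1.39-fold, edgeR adjusted p = 0.0345) and was the only member called higher, where 1.67% of all genes were called higher in DF and 4.27% lower. This call held in 10 of 20 alternatives and was lost, among others, with library totals, with the Xist term (0.43, edgeR adjusted p = 0.0664) and without any 1 of the DF or TF libraries or WT replicate 2. Of the genes called in DF versus TF, 28.1% were higher in DF with TMM factors and 13.9% with library totals. The log2 fold changes of the others were 0.52 for Ncf1 (95% interval 0.20 to 0.85), 0.42 for Hvcn1 (0.07 to 0.76), 0.39 for Cybb (0.02 to 0.76), 0.32 for Cyba (-0.10 to 0.74) and 0.28 for Rac2 (-0.01 to 0.57), with edgeR adjusted p of 0.0612, 0.164, 0.238, 0.422 and 0.29.

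In DF versus TFD the largest differences were those of Hvcn1 (0.71, 95% interval 0.32 to 1.11) and Ncf4 (0.52, 0.23 to 0.81), both with an edgeR adjusted p of 0.138. The libraries of Ncf1, Ncf4, Rac2 and Hvcn1 did not overlap, and here too the share of all genes without overlap was not counted. In the main fit edgeR called 0 members and 0 genes at all (0% in either direction) in this comparison, while 1727 genes had an unadjusted p under 0.05. DESeq2 called 258 genes, 2 of them members (Ncf4 and Hvcn1). The values rest on which TFD library is used. Without TFD replicate 1 the log2 fold changes of Hvcn1, Cyba, Ncf1 and Ncf4 were 1.08, 0.99, 0.77 and 0.67. Without TFD replicate 2 they were 0.39, 0.09, 0.25 and 0.35, and Cybb was 0.19. Each of these fits leaves 1 TFD library, whose spread is taken from the other groups. In TF versus TFD the members' log2 fold changes ran from -0.02 for Ncf1 to 0.30 for Hvcn1 (95% interval -0.09 to 0.69), and 0 were called, where 0.00821% of all genes were called in each direction. By unadjusted p under 0.05, 1068 genes of that comparison passed and DESeq2 called 131 genes and 0 members.

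**Figure D3:**
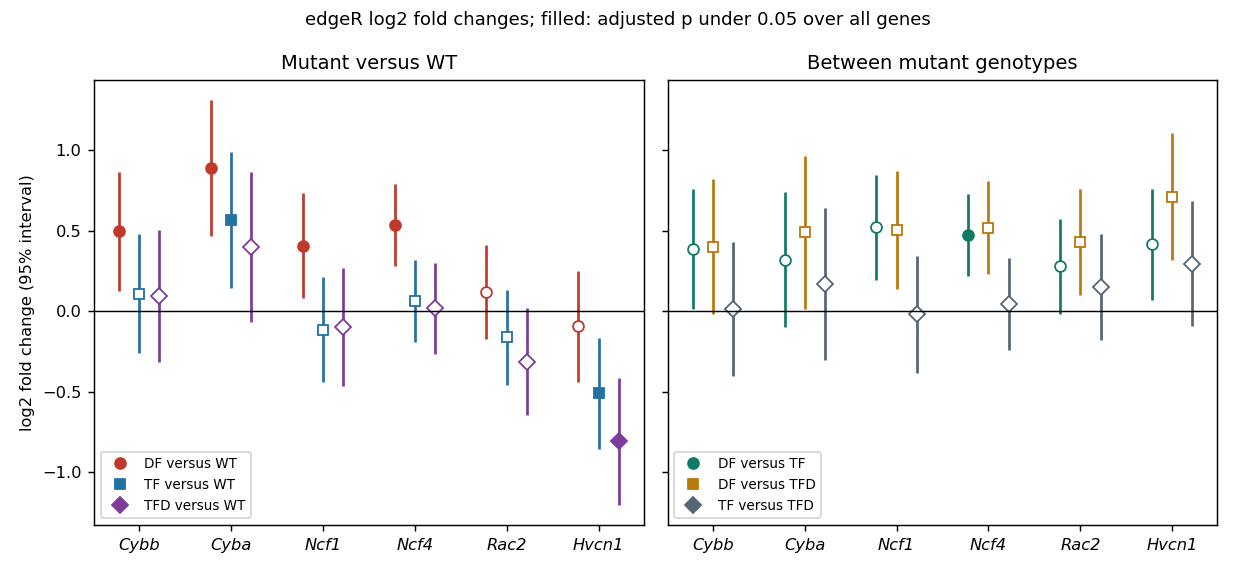
Log2 fold change with its 95% interval (vertical axis) for each gene, versus WT on the left and between mutants on the right. Symbols are filled where edgeR's adjusted p over all genes was under 0.05. Cyba reaches 0.89 in DF versus WT and Hvcn1 -0.81 in TFD versus WT, and all DF versus TF and DF versus TFD values lie above 0.

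The proportions of the members to each other, which do not depend on the scaling between libraries, moved in the mutants. Within each library the level of each gene per kilobase was taken as a share of the sum over the 6 genes. Shares of a sum are tied to each other, so that of a gene can be lower because another gene is higher, as with Ncf1 in DF, which was itself called higher. Hvcn1 held 6.69% to 6.98% of the sum in the WT libraries and 3.66% to 4.92% in the 8 mutant libraries. Rac2 held 14.2% to 15.3% in WT and 11.1% to 13.6% in the mutants, and Ncf1 20.4% to 21.5% in WT and 17.7% to 20.3% in the mutants. Cyba held 16.1% to 21.5% in WT and 21.7% to 28.2% in the mutants. For these 4 genes the shares of the WT and mutant libraries did not overlap, while the shares of Cybb (25.5% to 31.2% in WT, 25.8% to 31.6% in the mutants) and of Ncf4 (9.37% to 10.3% and 8.82% to 11.2%) did.

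The ratio of Cyba to Hvcn1 per kilobase joined the members with the most opposed changes. It was 3.08, 2.40 and 2.91 in WT replicates 1 to 3, 6.12, 5.08 and 5.44 in DF, 6.83, 5.67 and 5.37 in TF and 6.81 and 5.92 in TFD. All mutant libraries lay above all WT libraries, TFD replicate 2 included, in which Cyba itself was at the level of WT. The ratio of the chains of the membrane core, Cybb to Cyba, was 1.18, 1.94 and 1.41 in WT and between 0.92 and 1.46 in the mutants, with overlap. The ratios were chosen after the levels had been seen and are given with no test.

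**Figure D4:**
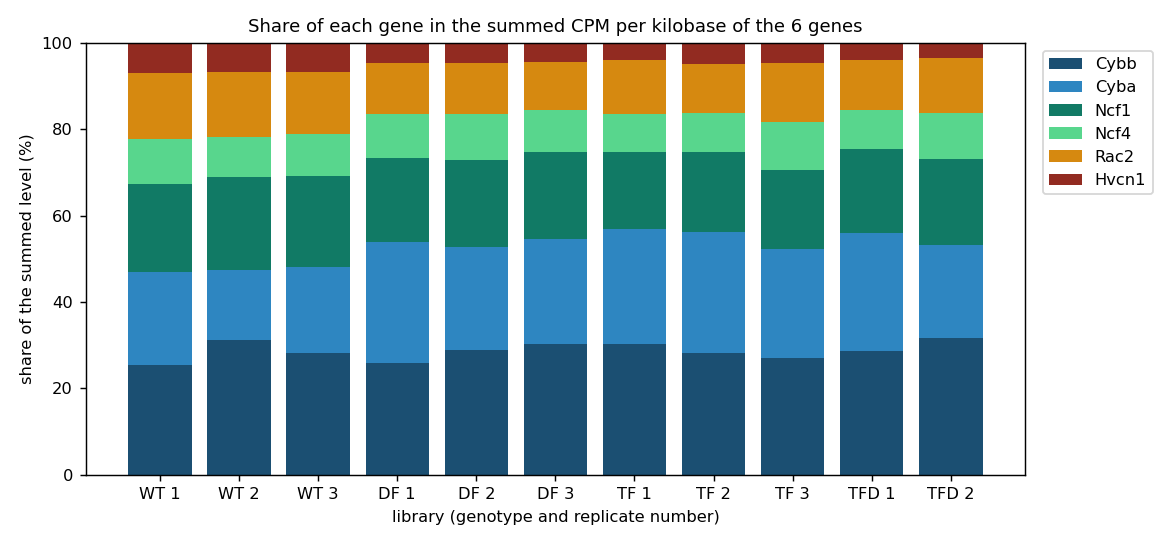
Share of each gene (percent, vertical axis) in the summed CPM per kilobase of the 6 genes, one bar per library. Hvcn1, at the top of the bars, takes 6.69% to 6.98% in WT and 3.66% to 4.92% in the mutants, and Cyba takes 16.1% to 21.5% in WT and 21.7% to 28.2% in the mutants.

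Markers of the cells in which the oxidase is known differed between the genotypes in several directions, and the counts of markers called here are to be read against the 21%, 19% and 14.7% of all genes called higher and the 16.6%, 15.6% and 11.6% called lower in DF, TF and TFD. The late neutrophil list (11 genes) had a summed level of 52686 to 66415 CPM in WT, 59921 to 84533 in DF, 37641 to 48348 in TF and 23796 to 47570 in TFD. None of the 11 was called higher, and 0, 4 and 2 were called lower in DF, TF and TFD. TFD replicate 2, in which all 6 members had their lowest value among the mutant libraries, had the lowest sum of late neutrophil markers. The primary granule list, genes of promyelocytes, was higher for 6 of 7 genes in DF, 1 in TF (with 1 lower) and 2 in TFD. Its sums were 3570.5 to 3618 CPM in WT, 5476 to 7161 CPM in DF, 3031 to 4987 CPM in TF and 4384 to 6339 CPM in TFD. Monocyte markers rose in all mutants, by 8, 8 and 7 of 10 genes, from sums of 2267 to 2575 CPM in WT to 6470 to 9158 CPM. Of 8 macrophage markers 1, 2 and 2 were higher and 6, 1 and 3 lower, with sums of 278 to 401 CPM in WT, 278 to 307 CPM in DF, 371 to 590 CPM in TF and 376 to 553 CPM in TFD. No gene of these 4 lists was at 0 in a library.

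B cells also express Hvcn1, and B cell markers were far lower in the mutants. Their sum was 529 to 635 CPM in WT and 16.9 to 125 CPM in the mutants, with 10, 9 and 10 of 10 genes called lower in DF, TF and TFD. Pax5 was at 0 in 1 DF and 1 TFD library and Vpreb1 in 1 TF library. In DF the sum was 16.9 to 29.4 CPM, with Hvcn1 at 182 to 213 CPM, against 184 to 227 CPM of Hvcn1 in WT. Erythroid markers were lower for 10, 8 and 8 of 10 genes (sums of 1597 to 2121 CPM in WT, 303 to 441 CPM in DF, 598 to 1656 CPM in TF and 577 to 715 CPM in TFD), T and NK cell markers for 5, 4 and 4 of 8, megakaryocyte markers for 2, 0 and 0 of 6 (1 was higher in TFD), and of 6 eosinophil, basophil and mast cell markers 1 was higher in DF and 2 were lower in TF. With 6 genes in a list, 1 call is near the share of all genes. The part of these cell types in the levels of the oxidase genes was not tested.

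**Figure D5:**
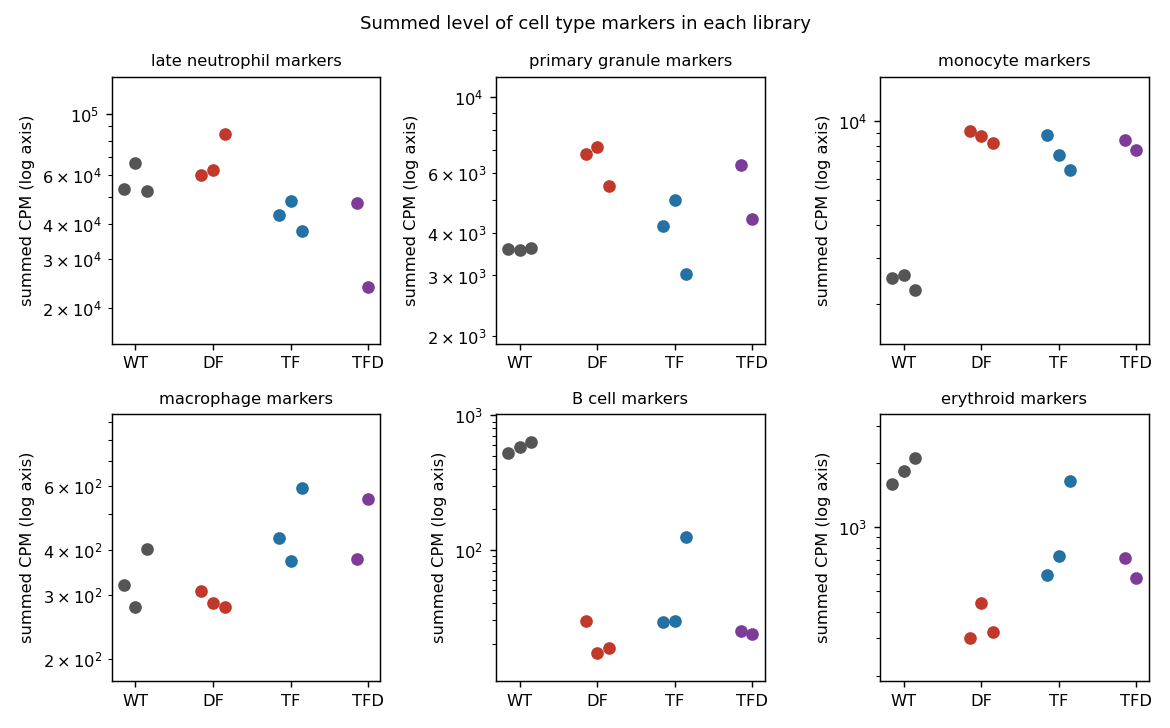
Summed CPM of 6 marker lists (log vertical axis) in every library, by genotype. Late neutrophil markers are lowest in TFD replicate 2 (23796 CPM), monocyte markers are above 6470 CPM in all mutant libraries and at most 2575 CPM in WT, and B cell markers are at most 125 CPM in the mutants.

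Beyond the members, 26 tested genes that act with the oxidase, among them the GTPases, kinases and exchange factors that activate it, moved in both directions. In DF versus WT 9 rose and 1 fell, in TF 4 rose and 3 fell, and in TFD 7 rose and 2 fell, with medians of 0.24, 0.04 and 0.05. Over all genes 21%, 19% and 14.7% were called higher and 16.6%, 15.6% and 11.6% lower, so the shares in TF were near or below those of all genes. Prex1, an exchange factor for Rac, rose by 0.47, 0.67 and 0.70 in DF, TF and TFD, from 176 to 225 CPM in WT to 234 to 338 CPM in the mutants (edgeR adjusted p = 0.0105, 0.00151 and 0.00246). Without the libraries rich in Xist reads its value in DF was 0.34 (adjusted p = 0.0751), and this call was also lost without WT replicate 3 and without DF replicate 1. Pik3cd, a catalytic subunit of PI3 kinase, rose by 0.55, 0.51 and 0.53 (edgeR adjusted p = 0.00175, 0.00314 and 0.00564), again with no overlap between WT and mutant libraries, and with only the libraries without many Xist reads its value in TFD was 0.50 (adjusted p = 0.0522). Syk, a kinase downstream of Fc receptors and integrins, fell, with log2 fold changes of -0.52, -0.74 and -0.52 (edgeR adjusted p = 0.00273, 0.000344 and 0.00844). Prkcb encodes a protein kinase C that phosphorylates p47phox. It fell by 0.85 in TF and by 0.68 in TFD (edgeR adjusted p = 0.00149 and 0.0137), and in DF its log2 fold change was -0.29 (adjusted p = 0.16). With only the libraries without many Xist reads these calls changed places between DF (-0.43, edgeR adjusted p = 0.0417) and TFD (-0.57, adjusted p = 0.0676). Of the other NOX family genes 1 was tested, Noxo1, an organizer of the NOX1 enzyme, at 0.36 to 2.06 CPM. Its log2 fold changes were 1.22 in DF, 1.15 in TF and 1.11 in TFD (edgeR adjusted p = 0.0407, 0.056 and 0.10). The call in DF was lost in 9 of 20 alternatives, among them DESeq2 and the Xist term (1.17, adjusted p = 0.0613).

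Genes that use or remove superoxide and peroxide moved in both directions, to be read against the same all-gene percentages. Of 24 tested, 8 rose and 6 fell in DF, 5 rose and 6 fell in TF, and 3 rose and 6 fell in TFD. Mpo, the enzyme that makes hypochlorous acid from the oxidase's product, was read at 1564 to 1787 CPM in WT and rose by 0.93 in DF and by 0.85 in TFD (edgeR adjusted p = 0.00493 and 0.0176), with 0.31 in TF (adjusted p = 0.277), which became 0.51 (adjusted p = 0.048) with only the libraries without many Xist reads. Prdx4, a peroxiredoxin of the endoplasmic reticulum, rose by 0.83, 1.17 and 0.84 (edgeR adjusted p = 0.00044, 5.24e-05 and 0.0012). Gclc, the catalytic subunit of the first step of glutathione synthesis, fell, with log2 fold changes of -1.31, -1.04 and -1.13, from 93.3 to 110 CPM in WT to 38.8 to 58.6 CPM in the mutants (edgeR adjusted p = 1.9e-05, 9.2e-05 and 0.000169). Nqo1, a quinone reductase, fell, with log2 fold changes of -1.38, -1.20 and -1.59 at low levels of 5.69 to 8.42 CPM in WT (edgeR adjusted p = 0.00107, 0.00283 and 0.00168).

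Among 14 tested transcription factors known to act on oxidase genes, 7 rose and 3 fell in DF, 5 rose and 1 fell in TF, and 4 rose and 1 fell in TFD, with 21%, 19% and 14.7% of all genes higher and 16.6%, 15.6% and 11.6% lower. Irf8, a factor of monocyte development that acts on Cybb, rose by 1.31, 1.71 and 1.43, from 123 to 160 CPM in WT to 313 to 483 CPM in the mutants (edgeR adjusted p = 1.57e-05, 2.04e-06 and 1.75e-05). Cebpa, which directs the granulocyte and monocyte lineages, rose by 1.53, 1.27 and 1.52 (edgeR adjusted p = 5.89e-06, 1.57e-05 and 1.2e-05). Crebbp, a coactivator, fell by 0.45 in DF and 0.39 in TF (edgeR adjusted p = 0.0115 and 0.0249) and had -0.32 in TFD (adjusted p = 0.104). Irf1 fell by 0.49 in DF and by 0.59 in TFD (edgeR adjusted p = 0.00549 and 0.00562), and in TF it had -0.02 (adjusted p = 0.888).

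The members followed different courses over the 11 libraries. Likeness was measured as the root mean square (RMS) difference between the log2 CPM of a pair of genes after each was centred on its mean, so that 0 is an identical course. Cybb and Ncf1 were the closest pair (RMS 0.12), followed by Ncf1 and Ncf4 (0.13) and Ncf1 and Rac2 (0.14). Cyba and Hvcn1 were the farthest apart (0.50), although both are membrane proteins of the same system. Cyba also kept apart from its partner chain Cybb (0.29).

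Of 9288 other genes whose mean log2 CPM reached 3, those nearest to Cybb were Itm2b (0.085), Igsf6 (0.089) and Ostf1 (0.099). Those nearest to Ncf1 were Sqrdl (0.080), Dram1 (0.083) and Ckap4 (0.084), and among those nearest to Ncf4 were Aacs (0.10) and Wdr1 (0.10). Cyba was nearest to Cotl1, an actin-binding protein (0.083), Myl12b, a myosin light chain (0.087), and Capg, which caps actin filaments (0.12). Rac2 was nearest to Slc35e1 (0.089), Jmjd6 (0.090) and Rhbdf2 (0.091). Hvcn1 was nearest to Lhfpl2 (0.11), Il18bp (0.11) and Pilrb2 (0.12). The other members were among the genes searched, so each of these distances is smaller than that to any other member by construction. The distances share the libraries and their scaling, and the list is a description.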

How the data were processed

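RNA of whole BM cells was depleted of globin transcripts, made into stranded total RNA libraries and sequenced. After FastQC, the authors used STAR (mm10) and, for uniquely aligned reads on refGene genes, featureCounts. They deposited raw counts and log2 CPM for genes above 0.5 CPM in more than 3 samples. Tool versions and whether counting used strand are not given in the sources used here. The deposited log2 CPM equal edgeR's with TMM factors and a prior count of 0.25 to within 5e-09, and the deposited exon lengths in bases gave CPM per kilobase.

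The counts of 11 libraries were tested with edgeR 4.0.16 (R 4.3.3): TMM factors, the same filter over these libraries (24 genes removed), quasi-likelihood F tests with 4 genotype means and 7 residual degrees of freedom, and Benjamini-Hochberg adjustment over 12175 genes in each of 6 comparisons, called under 0.05. Intervals cover 95%. Library totals give the depth, and such intervals cover spread among few mice. The study used DESeq2. DESeq2 1.42.0, limma 3.58.1 (voom), library totals, RLE factors, no filter, the compared groups alone, a replicate block, a term for Xist-rich libraries (10000 reads or more), only the other libraries, and each library left out were the alternatives. The procedures were tested on simulated data.

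Members and gene lists were chosen with earlier results of these data known. Named genes are the 6 members, in each list the 2 highest and the 2 lowest by mean log2 fold change versus WT, the altered genes, and the 3 genes nearest in pattern to each member. Marker lists are given as lists, and Tctn1 was added after its overlap was seen. Some genes that the rule names are not reported here. Promoters came from RefSeq, read in Python 3.11.15.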

Additional observations from a re-analysis of the deposited data

Results flagged for a closer look

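The difference between mutant genotypes was itself past the threshold for 2 of the genes named. For Ncf4 the log2 fold change in DF versus TF was 0.47 (SE 0.12, edgeR adjusted p = 0.0345), with all 3 DF libraries above all 3 TF libraries. Irf1 had a log2 fold change of -0.47 in the same comparison (SE 0.12, edgeR adjusted p = 0.0343). The calls held in 10 of 20 alternatives for Ncf4 and in 12 of 20 for Irf1, whose call was lost with the Xist term (-0.47, edgeR adjusted p = 0.0527) and with only the libraries without many Xist reads (-0.42, adjusted p = 0.0772). No outlier test was run on single genes, since each group has only 2 or 3 libraries.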

How the results depend on the processing

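In DF versus WT the 4 called members became 2 (Cyba and Ncf4) with library totals, RLE factors, the replicate block, the term for Xist-rich libraries and the libraries without many Xist reads, and from 2 to 4 with 1 library left out. In TF versus WT the 2 calls ran from 0 to 2 with 1 library left out, and in TFD versus WT the 1 call became 2 with only the libraries without many Xist reads. In DF versus TF the 1 call became 2 under DESeq2 and 0 with library totals, the replicate block and the Xist term, and ran from 0 to 2 with 1 library left out. In DF versus TFD the 0 calls became 2 under DESeq2, and they also depended on which TFD library was left out. The replicate numbers did not pair the samples: deviations of the 15 same-numbered pairs of libraries correlated from -0.30 to 0.25.

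The values that changed sign were not called in the main fit, where the largest was 0.40 (Cyba in TFD versus WT). With only the libraries without many Xist reads, Rac2 in DF versus WT became -0.033, Ncf4 in TF versus WT -0.080 and Ncf1 in TFD versus WT 0.051, and in TF versus TFD Cybb became -0.083, Cyba -0.11, Ncf4 -0.15 and Rac2 -0.042. In TF versus TFD Cybb became -0.030 with the Xist term and Ncf1 became 0.0065 with limma voom. With 1 library left out, Rac2 in DF versus WT ran from -0.030 to 0.16, and in TF versus WT Ncf4 ran from -0.030 to 0.15 and Irf1 from -0.11 to 0.091. In TFD versus WT the ranges were -0.11 to 0.28 for Cybb, -0.10 to 0.77 for Cyba, -0.37 to 0.13 for Ncf1 and -0.13 to 0.16 for Ncf4. In TF versus TFD they were -0.18 to 0.22 for Cybb, -0.21 to 0.67 for Cyba, -0.26 to 0.25 for Ncf1, -0.10 to 0.20 for Ncf4, -0.046 to 0.36 for Rac2 and -0.0072 to 0.67 for Hvcn1. The ends of the TFD ranges came without TFD replicate 1 or 2, fits that leave 1 TFD library, as does the use of only the libraries without many Xist reads. Over all genes, the 723 calls of DF versus TF became 474 with limma voom and 1072 with DESeq2 and ran from 169 to 934 with 1 library left out. The 0 calls of DF versus TFD became 258 with DESeq2, 135 with only the compared groups, 149 with only the libraries without many Xist reads, 42 with the replicate block and up to 387 without TFD replicate 1, and the 2 calls of TF versus TFD became 131 with DESeq2, 0 with only the compared groups and up to 75 without TFD replicate 1. The causes were not tested. The number of libraries, 2 or 3 in a genotype, limits the precision.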
